A study of Mus musculus with 6 samples.

Results

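A set of 10 genes of the TGF-β system were followed in sorted mouse kidney endothelial cells (ECs): the ligands Tgfb1, Tgfb2 and Tgfb3, the receptors Tgfbr1, Tgfbr2, Tgfbr3, Eng and Acvrl1, the signal carrier Smad3 and the latent ligand carrier Ltbp1. They were taken by gene name, and all 10 were found, once each, among the 55401 genes listed in the count table. All 10 were also among the 18438 genes with enough counts for a test. The genes were picked with their levels in these libraries already known, so the values below describe them and no p-value is printed for them. How many passed a threshold over all genes is likewise a description, given beside the count of all genes. Each of the 6 libraries came from CD31+CD45- cells sorted from the kidneys of 1 mouse. The 3 CTRL mice were Cre-negative littermates (Cre -/-; Rbpjf/f) and the 3 RbpjΔEC mice carried the Cdh5-CreERT2 transgene (Cre +/-; Rbpjf/f). In this line the Cdh5 promoter, active in ECs, drives a recombinase that works only in the presence of tamoxifen. Both groups therefore carried the loxP-flanked Rbpj alleles and both were given 5 doses of 1.5 mg tamoxifen at 8 weeks of age, but only the RbpjΔEC mice had the recombinase. Kidneys were collected 12 weeks after induction, and the labels give an age of 21 weeks for all mice. The comparison asks how the level of these genes differed when Rbpj had been deleted from ECs of the adult mouse.

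TGF-β ligands are secreted in latent complexes, tied through LTBP proteins to the extracellular matrix, and act once they are released. A freed ligand binds the type II receptor TGFBR2, which recruits the type I receptor TGFBR1 and sends SMAD2 and SMAD3 to the nucleus. ECs have a further type I receptor, ACVRL1 (ALK1), which binds BMP9 and BMP10 with the help of endoglin (Eng) and signals through SMAD1 and SMAD5, and loss of either gene in humans causes hereditary hemorrhagic telangiectasia. RBPJ is the DNA-binding partner of the Notch receptors, and Notch and TGF-β signals are both known for their parts in vessel specification and in kidney fibrosis.

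The libraries held between 39649171 and 47726850 counts, so that 3 counts correspond to 0.0629 to 0.0757 CPM (counts per 1000000 counts of the library, before the TMM scaling that the values below also carry). CTRL 1 stood apart in the number of genes with any count, 33764 against 25629 to 26785 in the other libraries. Markers of ECs were abundant in all 6 libraries, with Pecam1 between 1889.3 and 2324.2 CPM. The T cell marker Cd3e had no count, but other cells left some RNA. The leukocyte markers Ptprc and Cd68 lay between 0.535 and 3.92 CPM and between 6.98 and 25.1 CPM. The sum of 6 tubule markers lay between 95.7 and 409.5 CPM. Rbpj itself averaged 29.2 ± 0.964 CPM in CTRL and 28.2 ± 1.86 CPM in RbpjΔEC (SD, n = 3 each), groups that overlapped. The counts cover the whole Rbpj gene, including parts that the recombinase does not remove, and so do not measure the deletion. In RNA from a sorted population, fewer cells of a type and less RNA per cell cannot be told apart.

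Tgfb2 was the ligand that was lower in RbpjΔEC. Its gene lies on chromosome 1 (chr1:186622792-186705989, minus strand, GRCm38), and its product is the TGF-β isoform that binds TGFBR2 weakly on its own and is handed over by betaglycan (Tgfbr3). In CTRL 1 to 3, Tgfb2 stood at 75.7, 76.8 and 78.8 CPM. In RbpjΔEC 1 to 3, it stood at 39.5, 34.8 and 41.6 CPM. The CTRL libraries lay close together and every RbpjΔEC library was below all of them. The means were 77.1 ± 1.59 CPM and 38.6 ± 3.5 CPM (SD, n = 3), a ratio of 0.501 and a log2 fold change of -1.0 with a standard error (SE) of 0.082. Between 1459 and 3637 counts per library lie behind these values. An antisense gene that overlaps its exons, Gm29491, had 40 counts over the 6 libraries together.

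The promoter sequences below are shown because RBPJ acts by binding DNA: those of Tgfb2, which differed between the groups, of its paralog Tgfb1, which did not, and of Smad3, where the letters of an RBPJ core site were found. Each is the RefSeq sequence (GRCm38.p6) of the 250 bases before the annotated start, on the strand of the gene, and a promoter entry was matched for 7 of the 10 genes. Capitals mark the motifs searched on both strands, which did not overlap each other. TGGGAA is the core of the RBPJ site. An E box, searched as CACGTG, was added after the Tgfb2 sequence had been read. So was the TATA box, searched as TATAAA.
Tgfb2 (chr1:186705990-186706239, minus strand): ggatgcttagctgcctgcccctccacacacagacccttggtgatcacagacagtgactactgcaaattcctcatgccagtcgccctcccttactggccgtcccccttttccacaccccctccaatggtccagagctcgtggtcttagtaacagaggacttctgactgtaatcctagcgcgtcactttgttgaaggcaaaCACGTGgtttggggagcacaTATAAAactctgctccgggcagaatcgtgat
Tgfb1 (chr7:25686752-25687001, plus strand): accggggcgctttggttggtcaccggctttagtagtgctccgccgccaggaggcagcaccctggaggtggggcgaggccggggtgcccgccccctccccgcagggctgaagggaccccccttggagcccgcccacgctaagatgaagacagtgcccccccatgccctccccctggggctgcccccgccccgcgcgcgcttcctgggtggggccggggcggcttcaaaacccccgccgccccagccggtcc
Smad3 (chr9:63757995-63758244, minus strand): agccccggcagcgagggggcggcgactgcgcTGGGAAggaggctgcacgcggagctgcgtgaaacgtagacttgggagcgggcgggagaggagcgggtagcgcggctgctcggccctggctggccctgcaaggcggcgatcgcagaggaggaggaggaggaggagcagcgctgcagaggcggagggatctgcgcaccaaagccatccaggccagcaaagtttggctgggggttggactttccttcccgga
The Tgfb2 sequence held CACGTG 51 bases before the start and TATAAA 31 bases before it, motifs present in 6.0% and 12.4% of 32851 mouse promoter windows of the same length. TGGGAA, found in 21.6% of those windows, was in 1 of 9 windows of the 7 genes, that of Smad3, 219 bases before the start. The 2 ligand promoters also differed in composition: that of Tgfb2 had 53.6% G and C and 8 CpG dinucleotides, close to the medians of all windows (52.4% and 6), whereas that of Tgfb1 had 75.2% and 21. These letters describe the windows and do not show where a factor binds, and a window without a motif says nothing about sites elsewhere.

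The paralogs of Tgfb2 did not separate the groups. Tgfb1 (chr7:25687002-25705077, plus strand), the isoform best known from kidney fibrosis, was at 243.7, 215.1 and 198.0 CPM in CTRL and at 236.8, 249.2 and 195.8 CPM in RbpjΔEC. Both the highest and the lowest of these 6 values were from RbpjΔEC libraries, and the log2 fold change was 0.05 (SE 0.10). Tgfb3 (chr12:86056745-86079041, minus strand), the third isoform, was scarce, with 4.89, 4.06 and 3.22 CPM in CTRL and 3.59, 3.81 and 4.39 CPM in RbpjΔEC, and a log2 fold change of -0.04 (SE 0.21). Its RbpjΔEC values fell within the CTRL range, and its error was the largest among the 10 genes.

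The ratio of 2 genes within a library does not depend on how libraries are scaled. On the log2 scale, the ratio of Tgfb2 to Tgfb1 counts was -1.69, -1.49 and -1.33 in CTRL and -2.58, -2.84 and -2.23 in RbpjΔEC. The ratio of Tgfb2 to Tgfb3 counts was 3.95, 4.24 and 4.61 in CTRL and 3.46, 3.19 and 3.24 in RbpjΔEC. Neither ratio overlapped between the groups, and the mean differences were -1.05 and -0.97, which are close to the fold change of Tgfb2 alone.

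Per length of exonic sequence, as TPM (transcripts per 1000000 transcripts), Tgfb2 made up 20.8%, 23.2% and 25.3% of the summed TPM of the 3 ligands in CTRL 1 to 3. In RbpjΔEC 1 to 3, its share was 12.4%, 10.6% and 15.2%, below every CTRL library. The mean share went from 23.1% ± 2.25 to 12.7% ± 2.3 (SD, n = 3), that of Tgfb1 from 74.8% ± 1.99 to 85.0% ± 2.71, and that of Tgfb3 from 2.06% ± 0.268 to 2.22% ± 0.451. The shares depend on the length given to Tgfb1, whose exons cover 5042 bases but whose longest transcript has 2573. With the longest transcript of each gene, the mean Tgfb2 share was 15.0% in CTRL and 7.89% in RbpjΔEC.

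**Figure D1:**
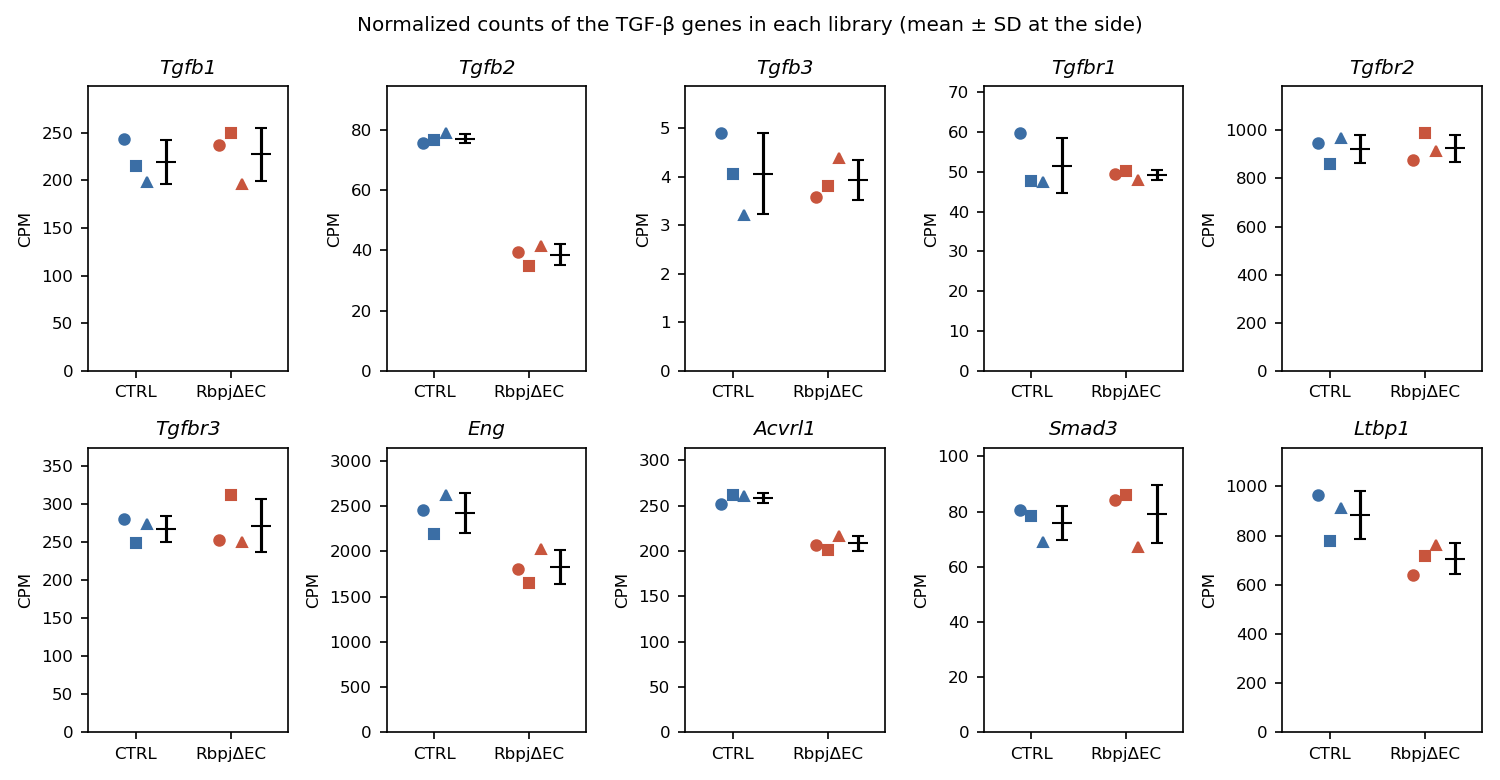
Normalized counts (CPM) of the 10 genes in each of the 3 CTRL (blue) and 3 RbpjΔEC (red) libraries, with circle, square and triangle for libraries 1 to 3 and the mean ± SD in black. Tgfb2 lies between 75.7 and 78.8 CPM in CTRL and between 34.8 and 41.6 CPM in RbpjΔEC, and Eng, Acvrl1 and Ltbp1 are also without overlap, with smaller gaps.

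Among the receptors, the TGF-β binding pair and betaglycan were level between the groups. Tgfbr2 (chr9:116084293-116175360, minus strand), the type II receptor, was at 945.7, 858.3 and 967.5 CPM in CTRL and at 876.5, 986.7 and 912.1 CPM in RbpjΔEC. The values interleaved, with a log2 fold change of 0.0 (SE 0.078). Tgfbr1 (chr4:47353222-47414931, plus strand), its type I partner, was at 59.6, 47.7 and 47.3 CPM in CTRL and at 49.5, 50.1 and 47.8 CPM in RbpjΔEC. Only CTRL 1 was apart, above the other 5 libraries, and the log2 fold change was -0.07 (SE 0.095). Tgfbr3 (chr5:107106570-107289629, minus strand), the co-receptor betaglycan, ranged from 248.6 to 280.5 CPM in CTRL and from 250.6 to 312.4 CPM in RbpjΔEC, with a log2 fold change of 0.02 (SE 0.092). RbpjΔEC 2 had the highest value and the other 5 libraries mixed. Part of its exons are shared with Gm43422 on the same strand, a gene model with 730 counts over all libraries.

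Both receptors of the ACVRL1 branch were lower in every RbpjΔEC library than in any CTRL library. Acvrl1 (chr15:101128522-101145336, plus strand) was at 251.9, 261.7 and 260.6 CPM in CTRL and at 206.9, 201.3 and 216.7 CPM in RbpjΔEC. The gap between the groups, from 216.7 to 251.9 CPM, was wider than the range inside either group. The means were 258.1 ± 5.35 and 208.3 ± 7.79 CPM (SD, n = 3), a ratio of 0.807 and a log2 fold change of -0.31 (SE 0.065). Eng (chr2:32646595-32682669, plus strand), the co-receptor endoglin and a surface marker of ECs, was at 2451.9, 2188.3 and 2621.4 CPM in CTRL and at 1806.7, 1653.1 and 2022.9 CPM in RbpjΔEC. Its groups also stood apart, but the gap, from 2022.9 to 2188.3 CPM, was narrower than the range inside either group. The means were 2420.5 ± 218 and 1827.6 ± 186 CPM, a ratio of 0.755 and a log2 fold change of -0.41 (SE 0.096). The exons of Eng overlap those of Fpgs on the opposite strand, which had 5249 counts over the 6 libraries, and the strand setting of the counting is not given in the sources used here.

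Set against the TGF-β receptors of the same library, Eng and Acvrl1 were lower too. The log2 ratio of Eng to Tgfbr2 counts was 1.37, 1.35 and 1.44 in CTRL and 1.04, 0.74 and 1.15 in RbpjΔEC, a mean difference of -0.41 without overlap. That of Acvrl1 to Tgfbr2 differed by -0.31 on average, also without overlap, whereas that of Acvrl1 to the other type I receptor, Tgfbr1, differed by -0.25 with overlapping libraries. Eng and Acvrl1 kept their ratio to each other more closely, with a mean difference of -0.10 and overlapping groups.

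Smad3 (chr9:63646767-63757994, minus strand), which carries the signal of TGFBR1 to the nucleus, was at 80.5, 78.4 and 68.8 CPM in CTRL and at 84.2, 86.0 and 67.0 CPM in RbpjΔEC. RbpjΔEC libraries held both ends of the range, and the log2 fold change was 0.06 (SE 0.10). Ltbp1 (chr17:75005568-75392512, plus strand), which binds the latent ligand and anchors it in the matrix, was at 964.8, 776.8 and 913.0 CPM in CTRL and at 637.7, 717.4 and 761.6 CPM in RbpjΔEC. The groups did not overlap, though CTRL 2 and RbpjΔEC 3 were close, and the ratio of means was 0.797 with a log2 fold change of -0.33 (SE 0.095). The log2 ratio of Tgfb2 to Ltbp1 counts was lower by 0.68 in RbpjΔEC, without overlap, so that ligand and carrier did not differ to the same extent.

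In all, 4 of the 10 genes (Tgfb2, Eng, Acvrl1 and Ltbp1) were lower in RbpjΔEC without overlap and 0 were higher without overlap, in a data set where 11.6% of the 18438 tested genes were lower and 11.4% were higher in this sense. At an adjusted p under 0.05 over all tested genes (edgeR, quasi-likelihood F test, Benjamini-Hochberg adjusted), 2 of the 10, Tgfb2 and Acvrl1, were called lower and 0 higher, where 0.559% of all tested genes were called lower, 0.575% higher and 1.13% either way. Since the 10 genes were selected on this same contrast, nothing is read from these shares or from which of the 10 passed. The median log2 fold change of the 10 genes was -0.06 and that of all tested genes 0.01. The log2 fold change of Tgfb2 lay between -1.05 and -0.93 in the 12 alternative fits. Calls moved with single libraries: Acvrl1 was not called when CTRL 1, CTRL 3, RbpjΔEC 1 or RbpjΔEC 2 was left out, nor with the replicate number as a block or with scaling by library size alone. Eng was called without CTRL 2 or without RbpjΔEC 3 and with the block, and Ltbp1 without CTRL 2. Both were also called by DESeq2's Wald test and without a low-count filter.

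**Figure D2:**
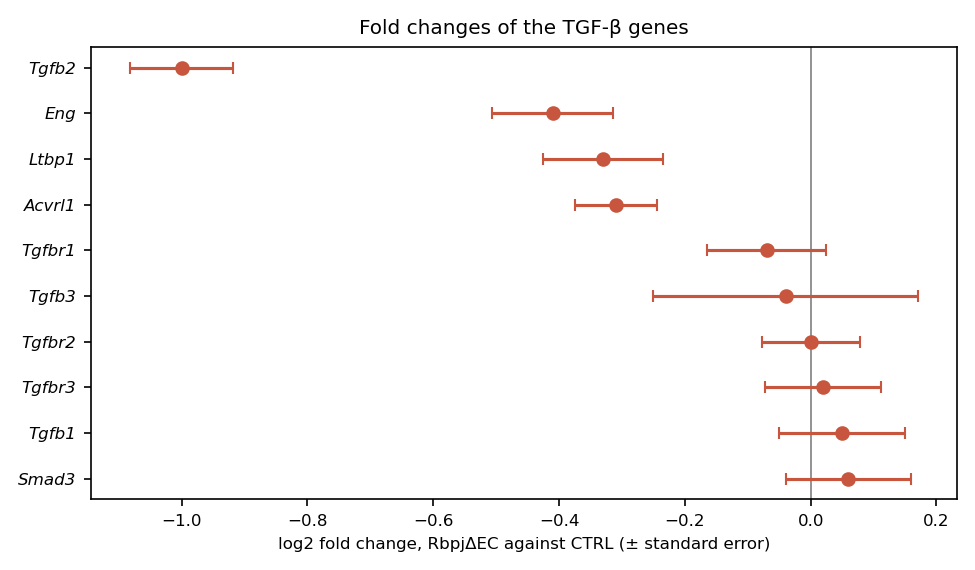
Log2 fold changes of the 10 genes in RbpjΔEC against CTRL (x axis, 3 libraries per group), with bars of 1 standard error. Tgfb2 is at -1.0, Eng, Ltbp1 and Acvrl1 lie between -0.41 and -0.31, and the other 6 lie between -0.07 and 0.06.

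The genes spanned a wide range of levels. In CTRL, Eng had by far the highest level per length, 1561.2 ± 85.5 TPM (SD, n = 3). Tgfbr2 followed with 295.4 ± 23.8 TPM, Ltbp1 with 215.9 ± 14.5 TPM, Acvrl1 with 159.5 ± 25.2 TPM, Tgfb1 with 114.4 ± 20.4 TPM and Tgfbr3 with 107.2 ± 9.38 TPM. Below them came Smad3 (36.2 ± 7.24 TPM), Tgfb2 (35.1 ± 4.94 TPM) and Tgfbr1 (20.7 ± 3.3 TPM), and Tgfb3 was the lowest at 3.17 ± 0.823 TPM. The type II receptor thus had more transcripts per length than its type I partner in all 6 libraries, and Acvrl1 exceeded Tgfbr1 as well. Neighbors that overlapped in CTRL were Tgfb1 with Tgfbr3 and Smad3 with Tgfb2.

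Tgfb2 was the gene whose place in this order differed between the groups. It overlapped Smad3 and stood above Tgfbr1 in all 3 CTRL libraries (32.7, 40.7 and 31.8 TPM), and it was below both in RbpjΔEC (20.5, 18.1 and 22.6 TPM), there with Tgfbr1 at 22.8, 23.2 and 23.0 TPM. Library 3 of RbpjΔEC came closest, with 22.6 against 23.0 TPM. Acvrl1 and Tgfb1 overlapped in RbpjΔEC and not in CTRL. TPM values serve here to rank genes and to give shares within a library, and a level in TPM is not compared between groups, because TPM and CPM scale the libraries differently. Tgfbr2, level in CPM, had 345.4 ± 21.1 TPM in RbpjΔEC. With the longest transcript as length, the CTRL mean of Ltbp1 (301.0 TPM) passed that of Tgfbr2 (259.8 TPM), Tgfb1 (194.8 TPM) passed Acvrl1 (162.3 TPM), and Tgfb2 (34.5 TPM) came level with Smad3 (34.3 TPM).

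**Figure D3:**
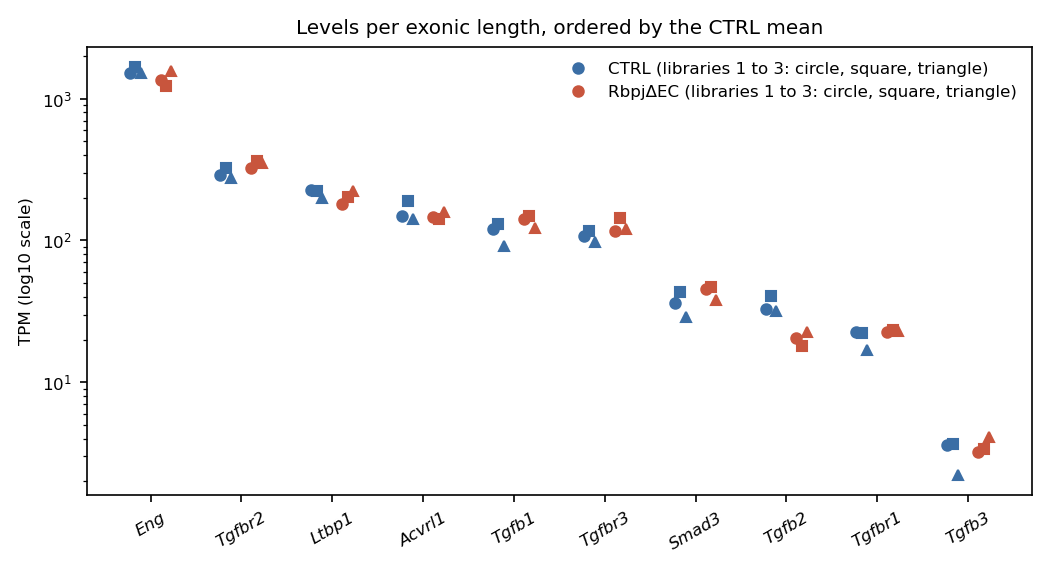
Levels per exonic length (TPM, log10 axis) of the 10 genes in 3 CTRL (blue) and 3 RbpjΔEC (red) libraries, ordered by the CTRL mean. Tgfb2 lies above Tgfbr1 in the CTRL libraries and below it in the RbpjΔEC libraries, where Tgfb2 is between 18.1 and 22.6 TPM.

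The pattern of Tgfb2 over the 6 libraries was compared with that of every other gene by Pearson's r of log2 CPM. These correlations are a description, since the difference between the groups enters all 6 points. Among the other 9 genes, Acvrl1 was the most like it (r = 0.99), followed by Eng (0.92) and Ltbp1 (0.80). Tgfbr1 (0.21), Tgfb3 (0.08), Tgfbr2 (-0.09), Tgfbr3 (-0.20), Tgfb1 (-0.30) and Smad3 (-0.31) did not follow it. Over 10442 genes with a mean of at least 5 CPM, outside the 10, the 5 most alike were Col18a1 (r = 0.996), Elovl1 (0.995), Atp2a3 (0.995), Kctd10 (0.993) and Fam81a (0.992).

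Col18a1, which encodes the basement membrane collagen that yields endostatin, was the closest, at 144.6, 141.6 and 156.5 CPM in CTRL and 74.6, 71.1 and 83.4 CPM in RbpjΔEC. All RbpjΔEC libraries were far below the CTRL libraries, and the log2 fold change was -0.95 (SE 0.079). The log2 fold change was -0.69 (SE 0.067) for Atp2a3, a calcium pump of the endoplasmic reticulum, and -1.09 (SE 0.14) for Fam81a. Elovl1, which elongates very long fatty acids, and Kctd10 had smaller differences, of -0.31 (SE 0.074) and -0.22 (SE 0.061). These 5 genes were picked for a pattern that holds the difference between the groups, so no test of that difference is given for them.

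Beyond the 10 genes, 124 genes of the pathway were listed, and 108 of them were tested. These lists, too, were chosen with earlier results of these data known, so their counts are a description. By edgeR, with p-values adjusted over all tested genes, 4 fell and 1 rose, where 0.559% of all tested genes were called lower and 0.575% higher. With an unadjusted p under 0.05, 26 were lower and 7 higher, the called genes included, where 8.62% of all tested genes were lower and 8.88% higher at that level. DESeq2, whose counts are given for each list, called 2.77% of all tested genes lower and 2.35% higher. The median log2 fold change of the 108 was -0.14, with 75 below 0 and 33 above, beside 0.01 for all tested genes. The count depended on single libraries, from 0 without CTRL 3 or without RbpjΔEC 1 to 16 without RbpjΔEC 3, and with the replicate number as a block it was 10.

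Genes that store or activate latent TGF-β had 2 members that fell and 0 that rose, of 21 tested among 25 listed, with a median log2 fold change of -0.26. At an unadjusted p under 0.05 by edgeR, 7 were lower and 1 higher. DESeq2 called 5 lower and 0 higher (Fbn1, Pcsk5, Itgb1, Mmp2 and Bgn). Fbn1, the microfibril protein fibrillin-1 to which LTBP proteins attach, was at 34.3, 43.4 and 44.7 CPM in CTRL and at 24.2, 21.1 and 24.2 CPM in RbpjΔEC. All RbpjΔEC values were lower, and it fell by 0.81 on the log2 scale (SE 0.11, adjusted p = 0.0086 by edgeR). Pcsk5, a proprotein convertase, fell by 0.53 (SE 0.093, adjusted p = 0.0239), from 88.7 ± 10.1 to 61.4 ± 4.84 CPM (SD, n = 3). Itgb1, a subunit of many integrins, came next, with 933.5 ± 58.1 CPM in CTRL and 739.9 ± 40.0 CPM in RbpjΔEC and an adjusted p of 0.061. The calls were lost when CTRL 3 or RbpjΔEC 1 was left out, and that of Pcsk5 also without RbpjΔEC 2, with adjusted p up to 0.058 for Fbn1 and 0.112 for Pcsk5.

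Of the other receptors of the family, 12 of 14 were tested and 0 passed edgeR's adjusted threshold. At an unadjusted p under 0.05, 3 were lower and 1 higher, and DESeq2 called 3 lower. These were Bmpr2, the BMP type II receptor that pairs with ACVRL1, with 1157.1 ± 67.0 CPM in CTRL and 882.7 ± 97.2 CPM in RbpjΔEC (log2 fold change -0.39, edgeR adjusted p = 0.0602), Nrp1, a co-receptor of VEGF that also binds TGF-β (-0.35, adjusted p = 0.0975), and the BMP type I receptor Bmpr1a, scarce at 2.97 and 1.32 CPM on average (-1.16, adjusted p = 0.116). The RbpjΔEC values of Bmpr2, 852.1, 804.5 and 991.5 CPM, all lay below the lowest CTRL value of 1091.0 CPM.

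The other ligands and traps had 14 of 22 genes tested and 0 past edgeR's threshold, while an unadjusted p under 0.05 was reached by 6 that were lower and 0 that were higher, and DESeq2 called 4 lower. Their median log2 fold change was -0.46, and most were scarce. Bmp6, a BMP ligand made by ECs and named because it is among those DESeq2 called, was abundant, at 77.1, 87.3 and 106.4 CPM in CTRL and at 46.4, 55.5 and 75.6 CPM in RbpjΔEC (-0.61, edgeR adjusted p = 0.208). Its groups just failed to overlap. Bmp2, an endothelial BMP ligand, was at 8.63, 7.27 and 7.01 CPM in CTRL and at 4.93, 4.05 and 5.99 CPM in RbpjΔEC (-0.61, edgeR adjusted p = 0.118). Bmp7 averaged 1.84 and 0.684 CPM (-1.43, adjusted p = 0.0841), and the BMP antagonist Grem1 1.24 and 0.441 CPM (-1.49, adjusted p = 0.114).

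Smad proteins and their regulators, all 25 of which were tested, had the median log2 fold change nearest to 0 among the 5 lists, -0.01. By edgeR, 0 passed the adjusted threshold, and DESeq2 called 0, while at an unadjusted p under 0.05 there were 4 higher and 2 lower. The smallest p-values belonged to the corepressor Tgif2 (log2 fold change 0.64, adjusted p = 0.143 by edgeR), the ubiquitin ligase Smurf2 (-0.22, adjusted p = 0.15) and the kinase Map3k7, also called TAK1 (0.18, adjusted p = 0.235).

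Of 38 textbook TGF-β target genes, 36 were tested, 2 fell and 1 rose, with a median log2 fold change of -0.14. At an unadjusted p under 0.05 by edgeR, 8 were lower and 1 higher. DESeq2 called 7 lower (Zeb2, Acta2, Fn1, Col1a2, Timp3, Tnc and Eln) and 1 higher (Junb). Zeb2, a transcriptional repressor, was at 99.4, 102.5 and 115.6 CPM in CTRL and at 69.4, 58.0 and 73.6 CPM in RbpjΔEC. It fell by 0.66 (SE 0.096, adjusted p = 0.013 by edgeR). Acta2, smooth muscle actin, fell by 1.3 (SE 0.24, adjusted p = 0.0369) from 10.2 ± 1.12 to 4.16 ± 1.48 CPM (SD, n = 3). Junb, an AP-1 subunit that many stimuli induce, rose by 0.51 (SE 0.10, adjusted p = 0.043) from 465.0 ± 36.8 to 663.5 ± 93.5 CPM. Without CTRL 3 or without RbpjΔEC 1, none of these 3 genes was called (adjusted p up to 0.0731, 0.154 and 0.184 for Zeb2, Acta2 and Junb). Without CTRL 1, the calls of Acta2 and Junb were lost, and without RbpjΔEC 2 that of Junb. Of 6 genes of the Notch pathway, the ligand Jag1 fell by 0.54 (adjusted p = 0.0368 by edgeR), and the target Hey1 (-0.76, adjusted p = 0.0722) and the ligand Dll4 (0.22, adjusted p = 0.162) were the next by p-value. The call of Jag1 was lost without CTRL 3, RbpjΔEC 1 or RbpjΔEC 2, with adjusted p up to 0.15.

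**Figure D4:**
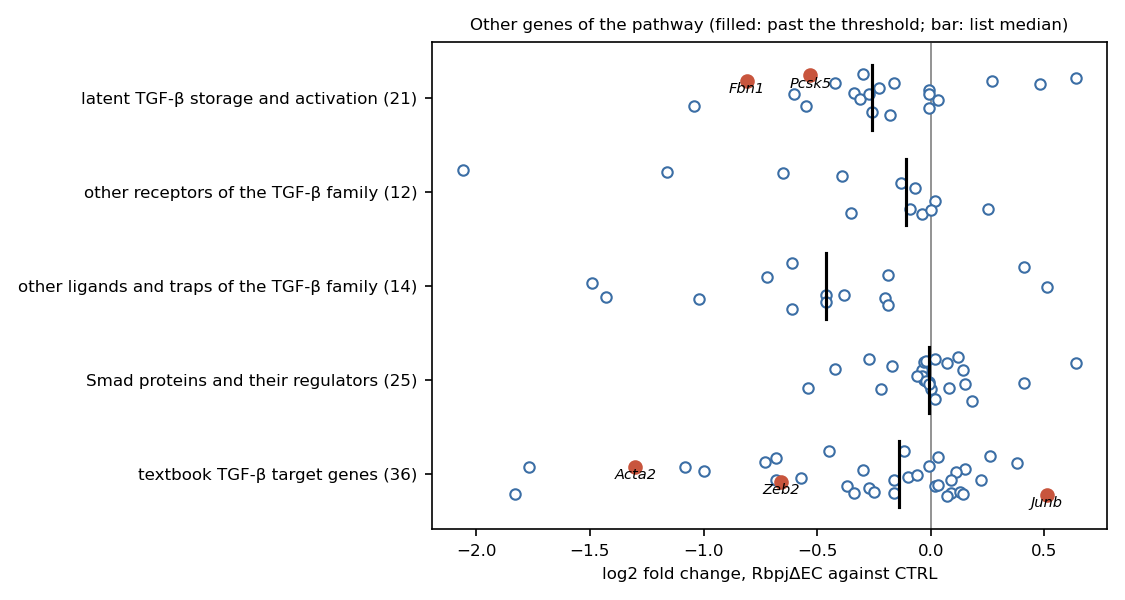
Log2 fold changes (RbpjΔEC against CTRL, x axis) of the tested genes of 5 pathway lists, the number tested in brackets, with filled named points for genes called over all tested genes and a bar at each list's median. The median is -0.46 for other ligands and traps and -0.01 for Smad proteins and their regulators, and 5 genes are filled, of which only Junb lies above 0.

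Markers of some cell types also differed between the groups. The summed CPM of 6 glomerular EC markers ran from 1857.7 to 2352.0 in CTRL and from 1226.4 to 1675.8 in RbpjΔEC, without overlap, a log2 ratio of means of -0.64, and 3 of the 6 were called lower (Pi16, Gata5 and Lpl). That of 12 arterial markers ran from 2507.3 to 2750.5 and from 2243.0 to 2369.0 CPM (-0.21), with 3 called lower, and that of 10 pan-endothelial markers from 19364.0 to 21083.0 and from 17502.3 to 18041.2 CPM (-0.20), with 0 called. A sum follows its most abundant members. The median log2 fold change was -0.78 for the glomerular, -0.52 for the arterial and -0.18 for the pan-endothelial markers. Of the 10 pan-endothelial markers, 4 were lower without overlap and 0 higher, where 11.6% and 11.4% of all tested genes were. These were Kdr (-0.27), Emcn (-0.27), Flt1 (-0.24) and Tek (-0.16). The 12 arterial markers ran from Gja5 at -1.34 (not called) to Dll4 at 0.22 (higher without overlap and not called), with 10 below 0 and 2 above. The log2 fold changes of Eng, Acvrl1 and Ltbp1 were larger in size than the pan-endothelial median and smaller than the arterial and glomerular medians. That of Tgfb2 was larger than all of these medians but smaller than that of Gja5. Medians near or beyond that of Tgfb2 were those of mural (-0.98), red cell (-1.13), mesangial and renin (-1.2), tubule (-1.22) and fibroblast (-1.67) markers. The podocyte (-0.66), leukocyte (-0.56) and platelet (0.08) medians were smaller in size. The venous and lymphatic sums overlapped between the groups, with log2 ratios near 0, but both rest on abundant genes. Of the 5 venous markers Vwf was called lower (-0.75, adjusted p = 0.00691 by edgeR), while the list median was 0.07 and Aplnr, at 109.6 and 222.7 CPM on average, was at 1.02 with overlapping groups and not called. Of the lymphatic markers, Flt4 made up most of the sum (log2 fold change 0.01). The scarce Lyve1 (-1.19) and Ccl21a (-1.47) were lower without overlap and not called. Prox1 (0.17) was higher without overlap and not called, and the median of the 4 tested was -0.59.

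Markers of other cells were scarce beside the EC markers but in part also lower in RbpjΔEC. The sum of 12 mural markers ran from 265.3 to 351.0 CPM in CTRL and from 227.3 to 264.6 CPM in RbpjΔEC (log2 ratio -0.26, and -0.13 without CTRL 1), groups less than 1 CPM apart, and 3 of the 11 tested (Acta2, Myh11 and Rgs5) were called lower, so that Acta2 counts in both this list and that of TGF-β targets. Mcam, at 179.8 and 158.1 CPM on average, made up most of this sum, and the median log2 fold change of the 11 was -0.98. Pdgfrb (-1.37), Des (-1.38) and Notch3 (-1.16) were lower without overlap and not called, whereas Kcnj8 (0.93) and Abcc9 (1.03) were higher without overlap and not called. The sum of 4 mesangial and renin markers ran from 40.5 to 53.2 and from 19.0 to 29.5 CPM (-0.91), with Ptn called lower, and that of 6 fibroblast markers from 4.63 to 7.08 and from 1.54 to 2.92 CPM (-1.59), with Pdgfra called lower of the 3 that were tested. The sum of 8 leukocyte markers was higher in RbpjΔEC, from 14.5 to 15.3 CPM in CTRL and from 23.3 to 28.1 CPM in RbpjΔEC (0.80). Cd68, called higher, set this sum: Cd3e was at 0 in all libraries, and the median of the 4 tested went the other way, at -0.56, with Ptprc at -1.44 and not called. Podocyte, tubule and platelet sums overlapped between the groups, and the sum of 3 red cell markers had a log2 ratio of -0.97 (-0.53 without RbpjΔEC 2 and -1.47 without RbpjΔEC 3). The part of any of these cells in the values of Tgfb2, Eng, Acvrl1, Ltbp1, Fbn1, Zeb2 or Acta2 was not tested.

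**Figure D5:**
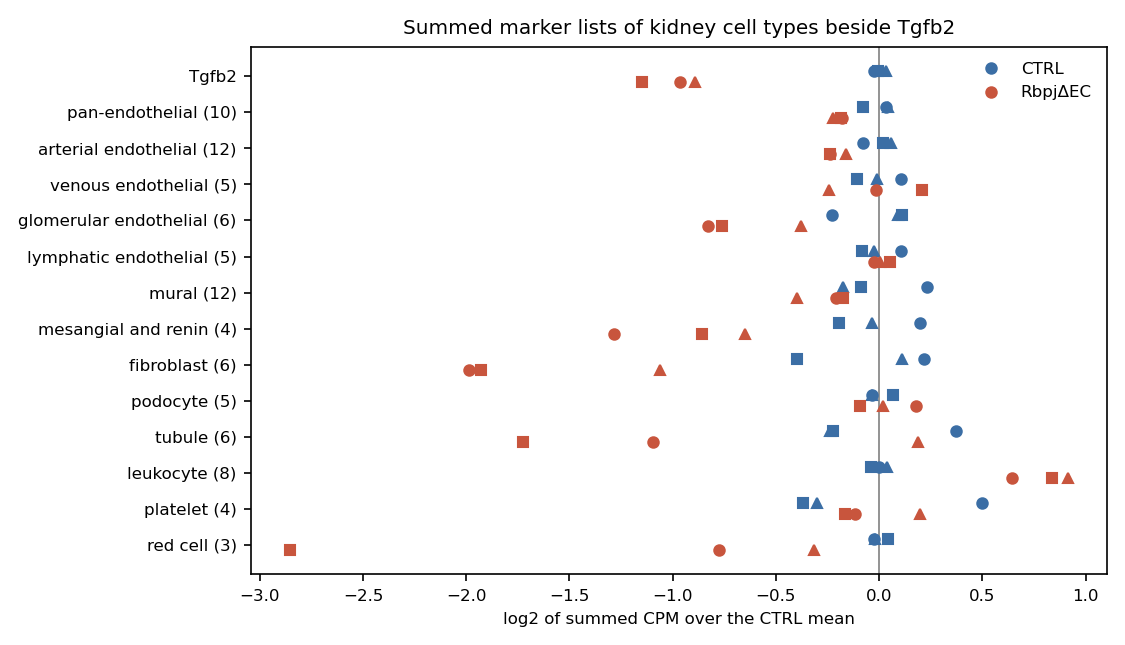
Log2 of the summed CPM of each marker list over its CTRL mean (x axis), per library (circle, square and triangle for libraries 1 to 3, blue for CTRL and red for RbpjΔEC), with Tgfb2 in the top row and the number of genes in each list in brackets. Tgfb2 lies below the endothelial marker sums in each RbpjΔEC library, with glomerular endothelial markers the lowest of the endothelial lists, at a log2 ratio of means of -0.64.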

How the data were processed

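RNA of sorted kidney ECs of 3 CTRL and 3 RbpjΔEC mice was sequenced, 1 library per mouse, from a stranded total RNA kit. The authors trimmed the reads (Trim Galore 0.6.4), aligned them to GRCm38 with STAR 2.6.1d and counted them per gene with featureCounts (Subread 1.6.4), and deposited the whole-number counts, not normalized. The labels gave the groups.

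Starting from the deposited counts, edgeR 4.0.16 in R 4.3.3 gave TMM-scaled CPM, fold changes on the log2 scale and p-values (filterByExpr, glmQLFit with robust estimation, glmQLFTest), with Benjamini-Hochberg adjustment over 18438 genes and a threshold of 0.05. Log2 CPM for correlations used a prior count of 2. Each standard error is the fold change divided by the root of its F value. Coordinates and the exonic lengths behind TPM were those of GENCODE M21 (GRCm38), where 55141 of the 55401 listed genes were found. The authors counted on GENCODE M25, so that positions can differ between the releases.

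The 10 genes and all lists were chosen with earlier results of these data known. Named genes were the 10, the 5 genes most like Tgfb2, and every gene of each pathway list called by edgeR or DESeq2. The smallest edgeR p-values were added until 3 genes of a list were named. Marker lists were summed per library. The mice are the replicates, and the number of counts behind a value limits only its counting error. The fit was tested on simulated data. Alternatives were DESeq2 1.42.0 (size factors, and its Wald test), scaling by library size alone, no low-count filter, a minimum of 1 CPM in 3 libraries, a block for the replicate number, the omission of each library in turn, and the longest transcript as length.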

Additional observations from a re-analysis of the deposited data

How the results depend on the processing

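Of all tested genes, 209 were called (106 higher and 103 lower). Without a low-count filter the count was 1436, with DESeq2's Wald test 944, with the replicate number as a block 344, and with 1 library left out between 21 (without RbpjΔEC 1) and 700 (without CTRL 2). With scaling by library size alone it was 241, split into 159 higher and 82 lower. Of the 10 TGF-β genes, 2 were called: the count was 1 with scaling by library size alone, 4 without a low-count filter, 4 with DESeq2, and 1 to 4 with 1 library left out. Of the other pathway genes, 5 were called, against 27 without a low-count filter, 20 with DESeq2, 10 with the block, and 0 (without CTRL 3 or RbpjΔEC 1) to 16 (without RbpjΔEC 3). The cause of these differences was not tested. The difference of Tgfb2 from Tgfb1 ran from -1.21 to -0.91 and that from Tgfb3 from -1.12 to -0.80. The signs of Tgfb1, Tgfb3, Tgfbr1, Tgfbr2, Tgfbr3 and Smad3 differed in 1 to 4 of 12 alternatives each, within the spread between replicates. With the longest transcript as length, the Tgfb2 share of ligand TPM was 15.0% in CTRL and 7.89% in RbpjΔEC.

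The labels number the mice 1 to 3 in both groups. Deviations from the group means of same-numbered libraries correlated at 0.023, 0.009 and 0.005, within the range of the other pairs (-0.063 to 0.048). With 3 libraries per group, these values can neither show nor exclude a pairing of the mice. The block counts above therefore describe only a shared number. Eng, Acvrl1 and Ltbp1 passed the threshold in 5, 6 and 3 of the 12 alternatives, and the low count of Tgfb3 limits what could be seen of it.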
